A study of Sus scrofa with 13 samples.

Results

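PPP1R3C, which brings protein phosphatase 1 to glycogen, was examined together with 8 further genes of glycogen metabolism in a profile of 5-hydroxymethylcytosine (5hmC), the oxidised form of DNA methylation. The 9 genes are PPP1R3C, PPP1R3B, PPP1R3D, GYS1, GBE1, UGP2, PYGL, PYGB and PGM1. They were found by gene symbol, and all 9 were among the 27339 genes of the count tables. PPP1R3C was chosen by its measured values, because its 5hmC count differed between hypoxia and normoxia in these same libraries, and the others for their place in the pathway. The values of PPP1R3C under that comparison are therefore a description, given without a test.

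5hmC-bearing DNA was captured with an antibody from cultured mesenchymal stem cells, which had been isolated out of abdominal adipose tissue of female domestic pigs. All pigs had been fed a diet with 2% cholesterol and had a stenosis of 1 renal artery, induced with a coil 3 weeks before the fat was taken. The 6 hypoxia libraries came from cells held at 1% oxygen for 48 hours, and the 6 normoxia libraries from cells cultured at 20% oxygen. Both groups carried the titles' numbers 110, 16, 21, 33, 49 and 4, once each, but the labels do not say what the numbers identify. Libraries numbered 110, 16, 21 and 33 were sequenced in lane 7, and those numbered 49 and 4 in lane 8, as the deposited tables are named. Whether cells of several animals were pooled is not stated either.

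Glycogen is a branched store of glucose. Glycogen synthase extends its chains and glycogen phosphorylase shortens them. Protein phosphatase 1 switches the synthase on and the phosphorylase off, and its PPP1R3 subunits carry it to the glycogen particle. Low oxygen is known to raise glycogen storage and the transcription of PPP1R3C in several cultured cell types. 5hmC is made from 5-methylcytosine by the TET enzymes, which need oxygen. A 5hmC count measures captured DNA, not RNA or glycogen. In bulk cultures, fewer cells carrying the mark and less of the mark per cell cannot be told apart.

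The tables held 263578 to 714002 gene reads per library, out of 15569948 to 27428482 reads. The normoxia library numbered 21 had the fewest gene reads. Counts are given as reads, or as CPM, which are counts scaled to the gene reads of a library with edgeR's TMM factors. Gene length is not part of either, so levels are compared between libraries and not between genes. 5hmC counts at cell type markers do not show which of them are expressed. All 25 marker genes examined had reads. The summed level of the 5 stromal markers was 463 to 604 CPM in hypoxia and 425 to 776 CPM in normoxia. That of the 5 leukocyte markers was 315 to 443 CPM in hypoxia and 245 to 546 CPM in normoxia, and that of the 5 endothelial markers 404 to 573 CPM in hypoxia and 305 to 536 CPM in normoxia. The 5 adipocyte markers summed to 221 to 439 CPM in hypoxia and 122 to 266 CPM in normoxia, and the 5 smooth muscle markers to 91.7 to 228 CPM in hypoxia and 82.6 to 341 CPM in normoxia.

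The first question was how the 5hmC counts of the glycogen genes compared between hypoxia and normoxia. PPP1R3C had a higher count in hypoxia in all 6 title numbers, with a mean of 150 CPM in hypoxia and 65.0 CPM in normoxia. None of the other 5 genes with enough reads for the test differed beyond the spread between libraries. The other 3, PPP1R3D, GBE1 and PYGB, had too few reads for it, between 33 and 57 in each group of 6 libraries.

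PPP1R3C encodes the subunit also called protein targeting to glycogen, which binds glycogen, phosphatase, synthase and phosphorylase together. Its level in hypoxia was 83.4 CPM at the lowest, 117 CPM at the median and 258 CPM at the highest, against 23.4, 55.4 and 148 CPM in normoxia. The groups overlapped through 1 normoxia library, numbered 49, whose 148 CPM lay above 4 of the hypoxia libraries. These levels rested on 27 to 142 reads per library in hypoxia and 10 to 74 reads in normoxia.

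Within title numbers, the largest difference at PPP1R3C was at number 4, with 258 CPM in hypoxia and 43.1 CPM in normoxia. The smallest was at number 21, with 107 CPM in hypoxia and 67.6 CPM in normoxia. On the log2 scale the 6 differences ran between 0.63 and 2.46. Numbers 21, 33 and 49 stood at 0.63 to 0.74 and numbers 110, 16 and 4 at 1.31 to 2.46. Whether these sizes differ beyond counting noise was not tested. A higher CPM in hypoxia in all 6 numbers was found at 199 of the 11868 tested genes, or 1.68%, and a lower one in all 6 at 307 genes (2.59%).

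**Figure D1:**
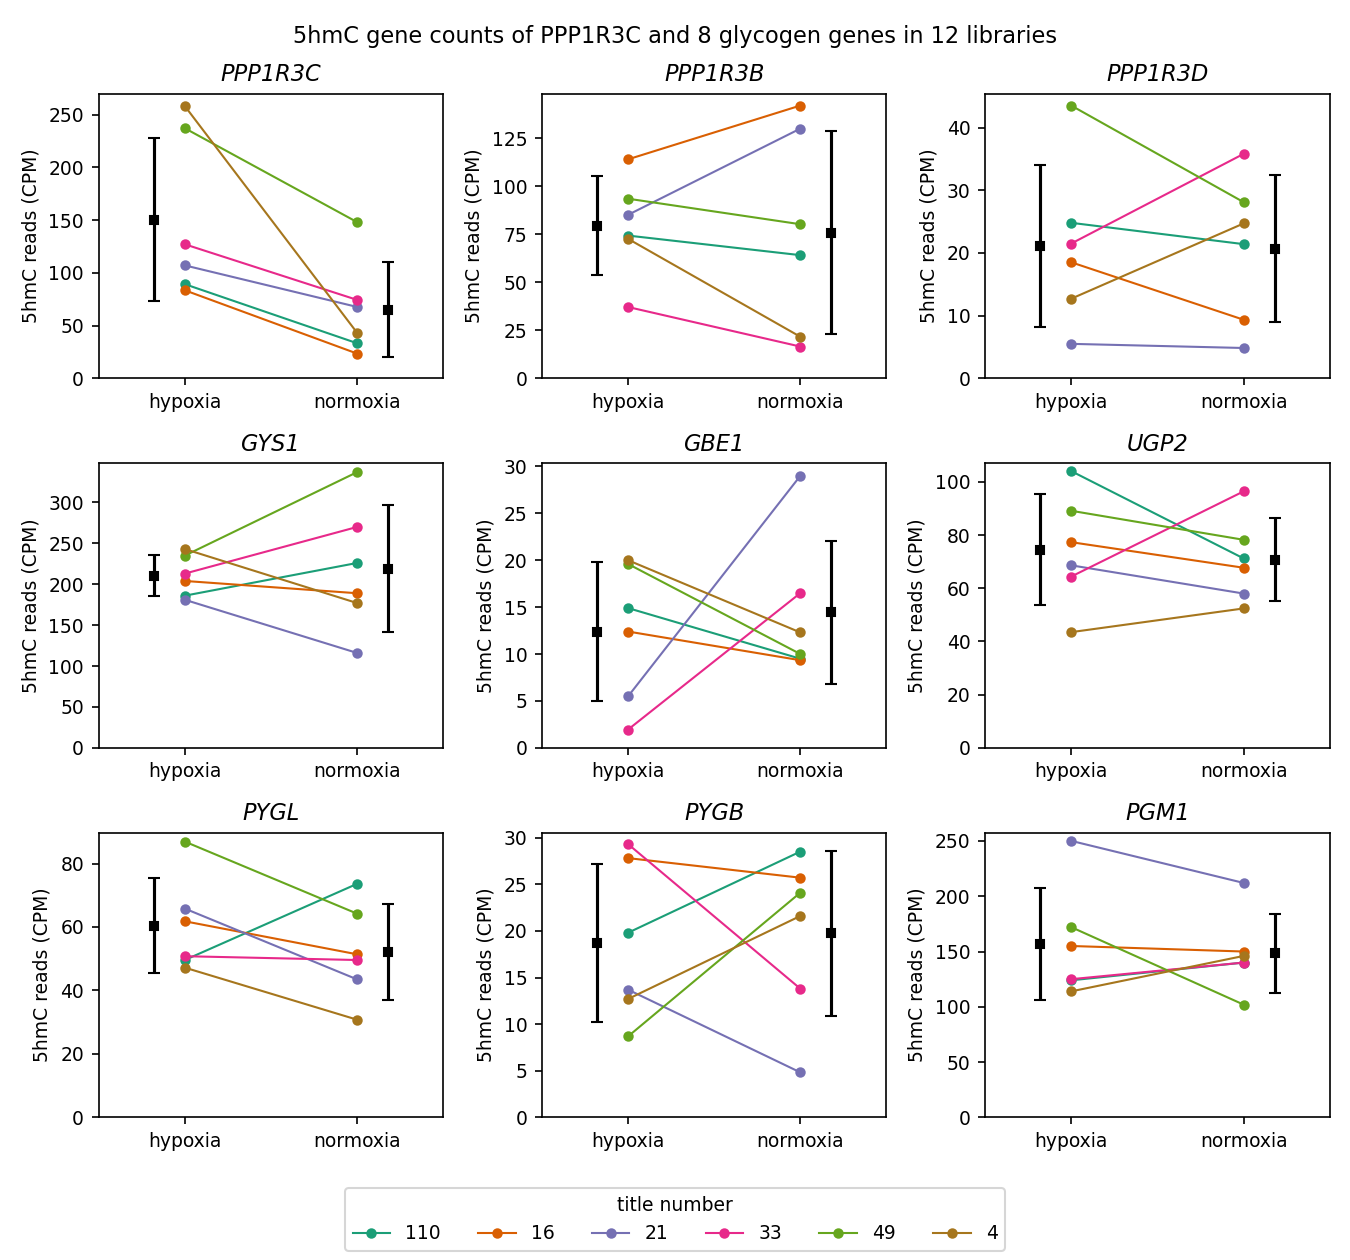
5hmC level (CPM, vertical axes starting at 0) of each of the 9 genes in hypoxia and normoxia libraries, with lines joining the libraries of 1 title number and black squares with bars giving mean and SD (n = 6 per group). All 6 lines of PPP1R3C are higher on the hypoxia side, whereas each of the other genes has lines in both directions.

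The mean of PPP1R3C was 150 ± 77.0 CPM in hypoxia and 65.0 ± 45.3 CPM in normoxia (SD, n = 6 each). The log2 fold change fitted by edgeR, hypoxia over normoxia, is called the log2 ratio here. It was 1.22 ± 0.382 (SE) without regard to the title number and 1.30 ± 0.239 with the number as a block. PPP1R3C was selected as 1 of the 4 genes of 11868 (0.0337%) with an adjusted p under 0.05 in edgeR's blocked quasi-likelihood test, of which 3 (0.0253%) were higher and 1 (0.00843%) lower in hypoxia. Without the block edgeR called 0 of the 11868 genes (0%), with 324 at an unadjusted p under 0.05, and DESeq2 also called 0, with 512 of 25336 genes at an unadjusted p under 0.05. In the blocked fit its log2 ratio was 0.98 without number 4, the lowest of the 6 such values, and 1.49 without number 49, the highest.

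Among the cell type markers, none of those tested passed. The values of 2 of them, ACTA2 and ADIPOQ, singled out after they were seen, are given here. ACTA2, a smooth muscle actin gene, had 58.5 ± 44.3 CPM in hypoxia and 102 ± 84.0 CPM in normoxia (SD, n = 6 each) and was lower in hypoxia in 6 of 6 numbers. Its blocked log2 ratio was -0.77 ± 0.221 (SE), with an edgeR adjusted p of 0.354. ADIPOQ, the adiponectin gene of adipocytes, had 240 ± 77.1 CPM in hypoxia and 160 ± 56.9 CPM in normoxia (SD, n = 6 each) and was higher in hypoxia in 5 of 6 numbers. Its blocked log2 ratio was 0.62 ± 0.202 (SE), with an edgeR adjusted p of 0.509. Of the other smooth muscle markers, MYH11 and TAGLN were lower in hypoxia in 4 of 6 numbers, and CNN1 and DES in 3. Of the other adipocyte markers, PLIN1 was higher in 5 of 6 numbers, FABP4 in 4, and LEP and CIDEC in 3. In the remaining lists, CD44 was lower and VWF higher in hypoxia in 5 of 6 numbers. The part of ACTA2 and ADIPOQ in the difference at PPP1R3C was not tested.

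The lanes were looked at one by one. In lane 7 the hypoxia libraries had 83.4 to 127 CPM at PPP1R3C and the normoxia libraries 23.4 to 74.3 CPM. In lane 8 the hypoxia libraries had 237 and 258 CPM and the normoxia libraries 148 and 43.1 CPM. The groups thus did not overlap within either lane, in the same direction, a pattern found at 13 of the 11868 tested genes (0.11%). The log2 ratio without the block was 1.10 in lane 7 and 1.42 in lane 8, a difference that was not tested.

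The genes next to PPP1R3C did not pass the test. In the gene order of RefSeq's pig assembly Sscrofa11.1, its nearest neighbours with enough reads for the test were HECTD2 and TNKS2. HECTD2, a ubiquitin ligase gene, had 21.0 ± 9.90 CPM in hypoxia and 25.3 ± 8.30 CPM in normoxia (SD, n = 6 each). TNKS2, encoding the poly-ADP-ribosyltransferase tankyrase 2, had 24.7 ± 11.3 CPM in hypoxia and 35.7 ± 14.6 CPM in normoxia. Their blocked log2 ratios were -0.31 ± 0.331 (SE) for HECTD2 and -0.49 ± 0.320 for TNKS2, with edgeR adjusted p of 0.907 and 0.816. LOC110256868 and FGFBP3, which also flank PPP1R3C, had at most 3 reads in any library.

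PPP1R3B encodes the targeting subunit best known from liver. Its level in hypoxia was 37.1 CPM at the lowest, 79.7 CPM at the median and 114 CPM at the highest, against 16.5, 72.2 and 142 CPM in normoxia. The normoxia libraries spanned a wider range than the hypoxia libraries, and the groups overlapped. Hypoxia was higher in 4 of 6 title numbers. The log2 ratio was 0.10 without the block (95% interval -0.74 to 0.93) and 0.29 with it (-0.22 to 0.80), with edgeR adjusted p of 1 and 0.885. Its sign depended on the lane, being -0.17 in lane 7 alone and 0.76 in lane 8 alone.

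PPP1R3D, another targeting subunit gene, had 1 to 20 reads per library and did not pass the filter on low counts. Its reads summed to 56 in hypoxia and 57 in normoxia, and its level was 21.1 ± 12.9 CPM in hypoxia and 20.7 ± 11.7 CPM in normoxia (SD, n = 6 each). In a fit without the filter its log2 ratio was -0.02 (95% interval -0.86 to 0.82). PPP1R3D overlaps FAM217B in RefSeq's gene order, and how reads in overlapping genes were assigned is not stated.

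The genes of glycogen synthesis showed no difference past the test. GYS1 encodes the glycogen synthase of muscle and most other tissues. Its level in hypoxia was 181 CPM at the lowest, 208 CPM at the median and 243 CPM at the highest, against 116, 207 and 337 CPM in normoxia. The hypoxia libraries all lay inside the normoxia range, and hypoxia was higher in 3 of 6 numbers. Its log2 ratio was -0.07 without the block (95% interval -0.54 to 0.40) and -0.02 with it (-0.40 to 0.36), with edgeR adjusted p of 1 and 0.993. GYS1 overlaps the long noncoding RNA gene LOC110261018 in RefSeq's gene order.

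UGP2 makes UDP-glucose, the building block that the synthase adds. Its level in hypoxia was 43.5 CPM at the lowest, 72.9 CPM at the median and 104 CPM at the highest, against 52.4, 69.5 and 96.4 CPM in normoxia. Hypoxia was higher in 4 of 6 numbers, and the hypoxia libraries held both the lowest and the highest value. Its log2 ratio was 0.07 without the block (95% interval -0.45 to 0.59) and 0.05 with it (-0.40 to 0.49), with edgeR adjusted p of 1 and 0.988. UGP2 overlaps VPS54 in RefSeq's gene order.

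GBE1, the branching enzyme gene, had 1 to 11 reads per library and did not pass the filter. It had 33 reads in hypoxia and 33 in normoxia, and it overlaps the pseudogene LOC102159217 in RefSeq's gene order. Its level in normoxia 21, 29.0 CPM from 6 reads, stood apart from the other normoxia libraries, which ran to 16.5 CPM. The log2 ratio in the fit without the filter was -0.06 (95% interval -1.01 to 0.89).

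The phosphorylases release glucose 1-phosphate from glycogen. PYGL, the liver form, had 47.2 CPM in hypoxia at the lowest, 56.3 CPM at the median and 86.9 CPM at the highest, against 30.8, 50.5 and 73.6 CPM in normoxia. Hypoxia was higher in 5 of 6 numbers, number 110 being the exception, and the groups overlapped over most of their range. Its log2 ratio was 0.20 without the block (95% interval -0.34 to 0.75) and 0.22 with it (-0.26 to 0.70), with edgeR adjusted p of 1 and 0.907. PYGL overlaps ABHD12B in RefSeq's gene order, and ABHD12B had a blocked log2 ratio of -0.37 ± 0.282 (SE).

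PYGB, the brain form, had 1 to 15 reads per library and did not pass the filter. Its reads summed to 48 in hypoxia and 55 in normoxia. Numbers 21 and 33 were higher in hypoxia and numbers 49 and 4 lower, each by 0.60 or more on the log2 scale. Its log2 ratio in the fit without the filter was -0.16 (95% interval -0.95 to 0.62).

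PGM1 interconverts glucose 1-phosphate and glucose 6-phosphate and so links glycogen to glycolysis. Its level in hypoxia was 114 CPM at the lowest, 140 CPM at the median and 250 CPM at the highest, against 102, 143 and 212 CPM in normoxia. The highest value of each group came from number 21. Hypoxia was higher in 3 of 6 numbers. Its log2 ratio was 0.09 without the block (95% interval -0.41 to 0.58) and 0.05 with it (-0.33 to 0.43), with edgeR adjusted p of 1 and 0.981.

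**Figure D2:**
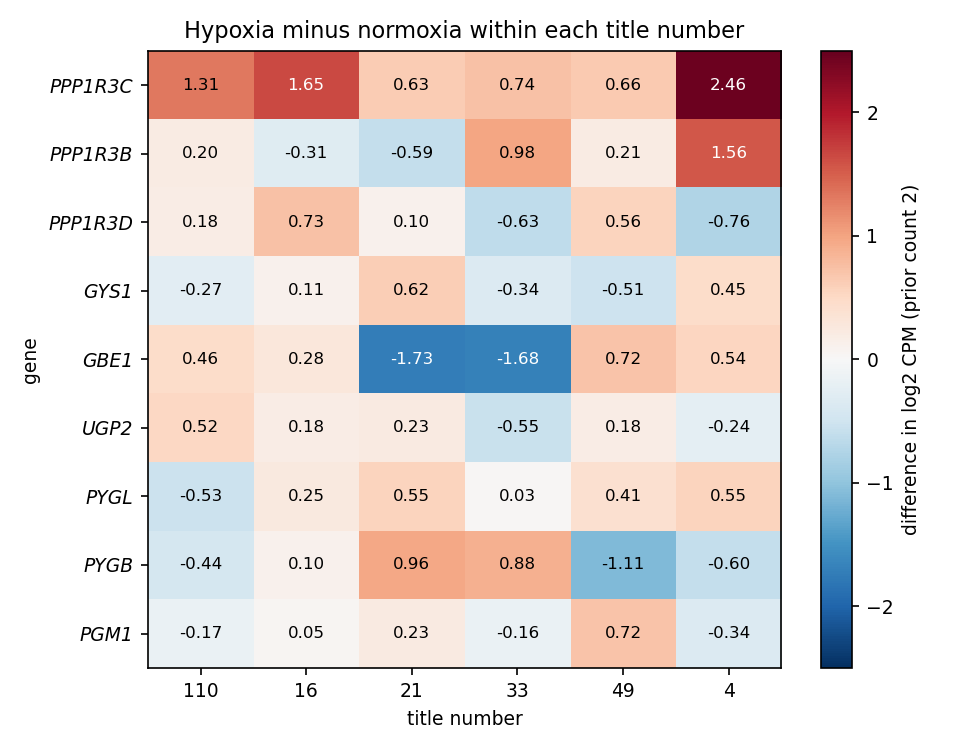
Difference in log2 CPM, hypoxia minus normoxia, for each of the 9 genes (rows) in each title number (columns), with red for higher and blue for lower in hypoxia. The PPP1R3C row holds positive values only, from 0.63 to 2.46, and each of the other rows holds both signs.

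Of the 6 tested genes among the 9, the log2 ratio was above 0 at 5 and below 0 at GYS1, and its median in the unblocked fit was 0.092. Over all 11868 tested genes 43.4% were positive and the median was -0.043. Leaving out PPP1R3C, 4 of 5 were positive with a median of 0.085, or 0.052 in the blocked fit, where the median of all genes was -0.021. None of the 9 genes had hypoxia libraries that all lay above the normoxia libraries, a pattern of 5 of the 11868 tested genes (0.0421%).

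The wider pathway was read from 46 listed genes, the 9 above included, of which 45 were in the tables and 28 had enough reads for the test. Unblocked, 13 lay above 0 and 15 below (median -0.073), and 0 were called. Blocked, 12 lay above 0 and 16 below (median -0.056), and PPP1R3C, selected on this fit, alone was called. Without the 9 genes, 7 of the 22 others tested were positive in the blocked fit, with a median of -0.107, beside 46.6% of all tested genes and their median of -0.021.

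Of the 7 targeting subunits of protein phosphatase 1, PPP1R3E was the only other one tested. It had 71.4 ± 9.77 CPM in hypoxia and 77.5 ± 20.7 CPM in normoxia (SD, n = 6 each), and its blocked log2 ratio was -0.09 ± 0.221 (SE). PPP1R3A, the skeletal muscle form, and PPP1R3F had 0 to 5 reads per library. PPP1R3G, singled out after its values were seen, had 33.2 ± 9.91 CPM in hypoxia and 21.0 ± 6.25 CPM in normoxia and was higher in 6 of 6 numbers. At number 4 the levels were 23.6 CPM in hypoxia and 23.1 CPM in normoxia. PPP1R3G had 3 to 21 reads per library and did not pass the filter, and its log2 ratio in the blocked fit without it was 0.60 ± 0.319 (SE), with an edgeR adjusted p of 1. The catalytic subunit genes PPP1CB and PPP1CC had blocked log2 ratios of -0.22 ± 0.306 and -0.11 ± 0.297.

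In glycogen synthesis, GYS2, the liver synthase gene, had a blocked log2 ratio of 0.31 ± 0.263 (SE). GYG2, one of the glycogenin genes whose proteins prime new glycogen, stood at -0.24 ± 0.245.

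Among the kinases, 2 of 7 tested genes were positive and 5 negative in the unblocked fit. GSK3B encodes a kinase that phosphorylates and inactivates glycogen synthase. Its level in hypoxia was 89.3 ± 9.52 CPM and in normoxia 125 ± 35.5 CPM (SD, n = 6 each), lower in hypoxia in 5 of 6 numbers. The blocked log2 ratio was -0.47 ± 0.198 (SE) with an edgeR adjusted p of 0.646, so it did not pass. GSK3A, its paralog, had -0.31 ± 0.234. EPM2AIP1, whose protein binds the glycogen phosphatase laforin, had -0.53 ± 0.249 with an edgeR adjusted p of 0.696.

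Of the hexose phosphate enzymes, HK2, a hexokinase that forms glucose 6-phosphate, had 105 ± 37.6 CPM in hypoxia and 64.4 ± 26.0 CPM in normoxia (SD, n = 6 each). HK2 was higher in hypoxia in 6 of 6 numbers, with a blocked log2 ratio of 0.72 ± 0.213 (SE), whose edgeR adjusted p was 0.393. GPI, which turns glucose 6-phosphate into fructose 6-phosphate, had 43.0 ± 14.0 CPM in hypoxia and 28.9 ± 15.9 CPM in normoxia, and a blocked log2 ratio of 0.63 ± 0.286 (adjusted p = 0.689). Neither passed over all genes.

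**Figure D3:**
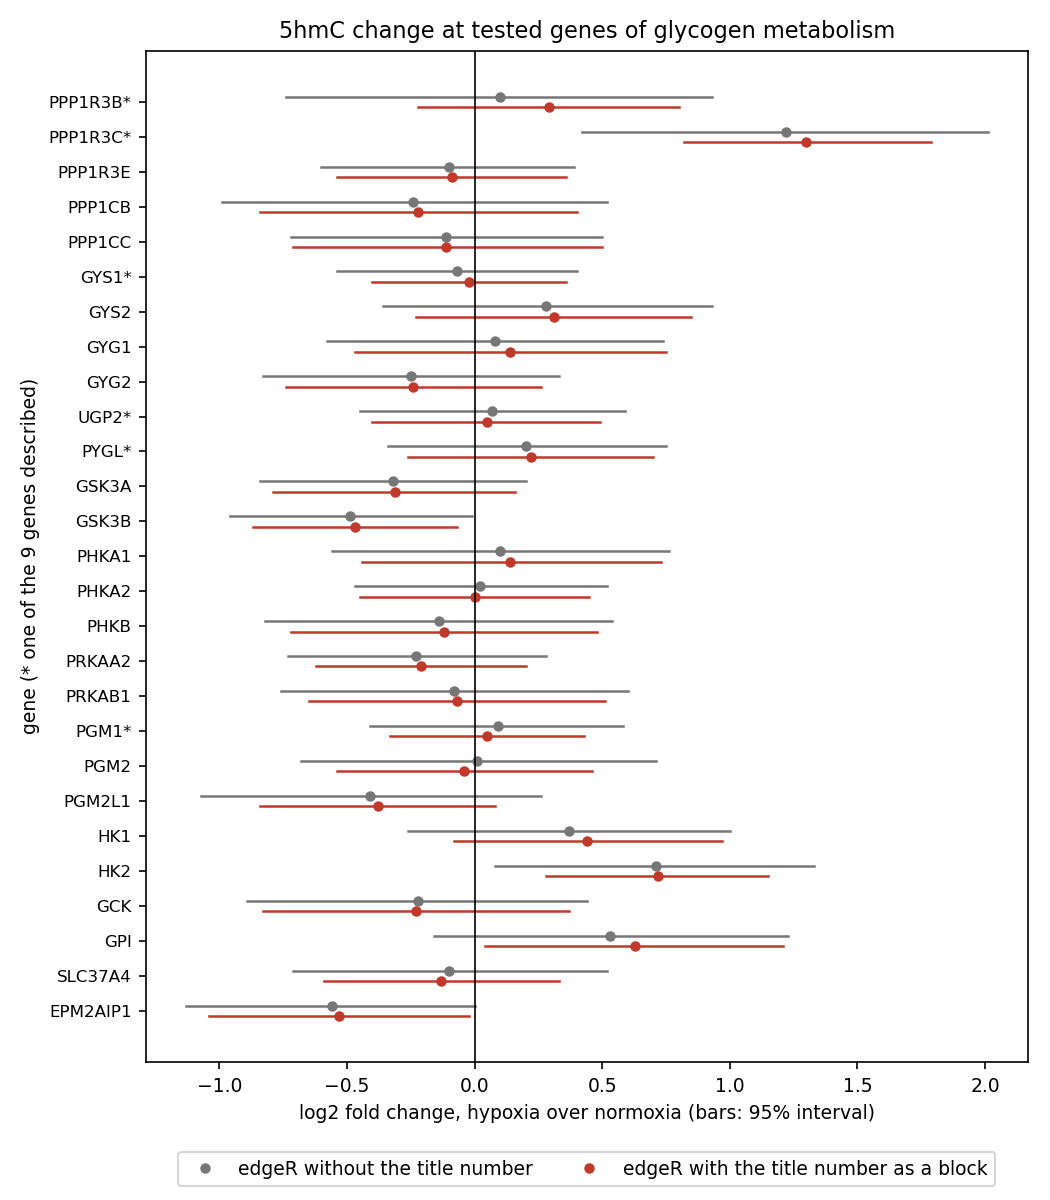
Log2 ratio of hypoxia over normoxia with its 95% interval for 27 of the tested genes of glycogen metabolism, in edgeR fits without the title number (grey) and with it as a block (red). PPP1R3C has the highest value in both fits, followed by HK2 (0.71 and 0.72), and EPM2AIP1 (-0.56 and -0.53) and GSK3B (-0.49 and -0.47) have the lowest.

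A second question was whether the glycogen genes differed between title numbers, whatever the oxygen level. This test was added after the data were seen and compares the 6 numbers across both groups in edgeR. It called 1520 of 11868 genes (12.8%), and among the 9 genes PPP1R3B (adjusted p = 0.00763). GYS1, UGP2, PYGL and PGM1 did not pass, with adjusted p of 0.330, 0.422, 0.449 and 0.240. PPP1R3C had an adjusted p of 0.00520, which is no independent result, because the spread estimate of the same blocked fit took part in its selection.

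At PPP1R3B both libraries of number 33 were low, with 37.1 CPM in hypoxia and 16.5 CPM in normoxia. Both libraries of number 16 were high, with 114 CPM in hypoxia and 142 CPM in normoxia. Number 21 followed with 85.1 CPM in hypoxia and 130 CPM in normoxia. The libraries of number 4 lay apart, with 72.6 CPM in hypoxia and 21.6 CPM in normoxia. Among the 4 numbers of lane 7 alone PPP1R3B also passed (edgeR adjusted p = 0.0129), where 7.23% of genes were called. In the test over both lanes the call was lost without number 16 (adjusted p = 0.0507) or 33 (0.101). Its neighbour genes in RefSeq's order with enough reads, DUSP4, TNKS and ERI1, had blocked log2 ratios of -0.31 to -0.18. The other neighbour, LOC106508273, was higher in hypoxia in 6 of 6 numbers, with 21.2 ± 5.45 CPM in hypoxia and 11.8 ± 4.22 CPM in normoxia (SD, n = 6 each). It had 2 to 15 reads per library and was not tested.

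At PPP1R3C the ordering of the numbers was another one. The mean over both libraries was highest for numbers 49 (193 CPM) and 4 (150 CPM), those of lane 8, and lowest for number 16 (53.4 CPM). In lane 7 alone the difference between numbers at PPP1R3C did not pass (adjusted p = 0.207). Lane and number cannot be told apart for the difference between the lanes.

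**Figure D4:**
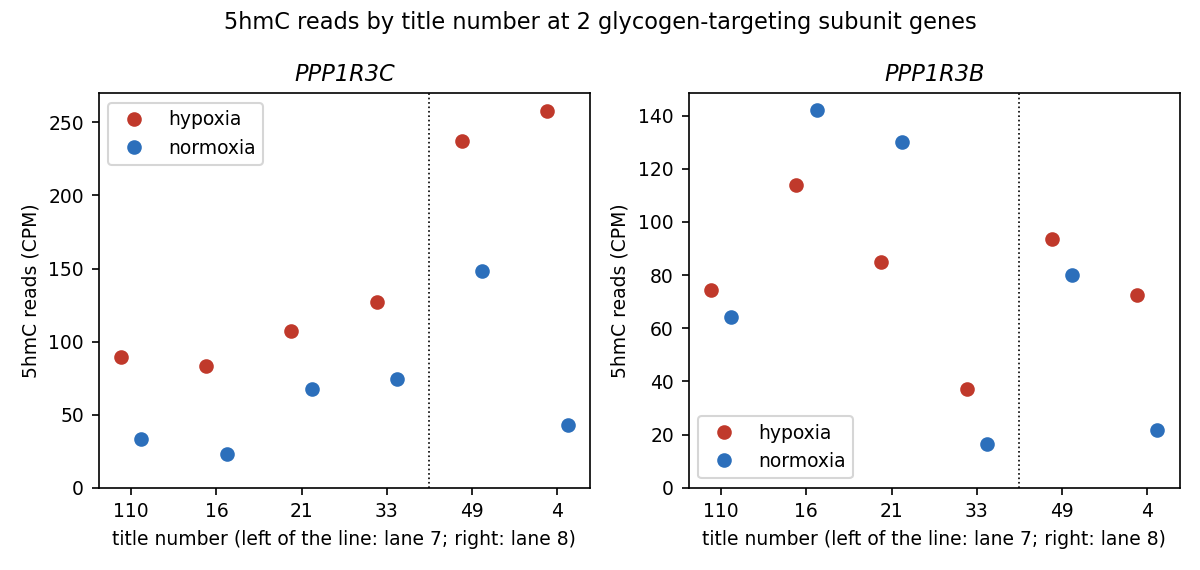
5hmC level (CPM) of PPP1R3C and PPP1R3B in the hypoxia (red) and normoxia (blue) library of each title number, with a dotted line between lanes 7 and 8. PPP1R3C is highest in the hypoxia libraries of numbers 4 and 49 (258 and 237 CPM). PPP1R3B is lowest at number 33 within each oxygen group.

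The pattern of PPP1R3C over the 12 libraries was compared with that of every other tested gene by Pearson's r of log2 CPM, as a description without a p, since the libraries share numbers and lanes. The most similar were LOC110255920 (r = 0.824, Spearman's rho 0.839), MTURN (0.818 and 0.867), SEC22C (0.806 and 0.881), LOC110257804 (0.804 and 0.748) and LOC110255711 (0.787 and 0.825). Without the 2 libraries farthest from the median of PPP1R3C, normoxia 16 and hypoxia 4, their r was 0.650 to 0.849. The blocked log2 ratios of these 5 genes were 0.26 to 0.54, below that of PPP1R3C. Leaving out 1 title number at a time kept 0 to 3 of the 5 among the 5 most similar.

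The other glycogen genes did not follow PPP1R3C closely. GYS1 had r = 0.382 (rho 0.483) and ranked 868th of 11867 genes, and PYGL had r = 0.309 (rho 0.182). PPP1R3B (r = 0.037), UGP2 (-0.010) and PGM1 (-0.164) stood near or below 0, with rho of -0.070, 0.091 and -0.301. These values depended on the libraries normoxia 16 and hypoxia 4. Without them r was 0.345 for GYS1, 0.493 for PYGL, 0.310 for PPP1R3B, 0.397 for UGP2 and -0.025 for PGM1.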

How the data were processed

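The authors deposited, per library, raw whole-number read counts per gene symbol, with the summary rows that HTSeq writes. The submitters' processing notes name Bowtie2, Picard, HTSeq, MACS2 and edgeR. Genome build, annotation, feature type and strand setting are details not given in the sources used. Whether counts cover introns is therefore unknown. Of the reads, 1.69 to 2.89% were assigned to genes, 88 to 93% to no feature, and 4.12 to 10.3% had low alignment quality. As the feature type is unknown, the reads assigned to no feature may include reads within genes. The reads not assigned to a gene entered no library size or test, except where an alternative uses all reads as library size. The peak lists were not used here, as no build ties peaks to genes, and the input sample was not analysed here. RefSeq's Sscrofa11.1 table (26838 of 27339 symbols matched, and all 9 genes) served for gene order only.

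All 12 libraries were fitted with edgeR 4.0.16 in R 4.3.3: filterByExpr (minimum count 10, total 15), TMM, glmQLFit and glmQLFTest, with Benjamini-Hochberg adjusted p under 0.05 over all genes. Each SE was obtained by dividing the fitted log2 value by √F. DESeq2 1.42.0 was an alternative, and Python 3.11.15 made the summaries. The fits were tested on simulated counts, which held no effect of title number or lane and so could not test the pairing. The test between title numbers, the fits on lane 8 and the blocked fit on lane 7 were added after seeing the data. So were the blocked fits with library size as the only scaling, with all reads as library size, and without normoxia 21. Log2 CPM used a prior count of 2.

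Title numbers were taken as pairs. After the group means were removed, libraries sharing a number correlated at 0.136 to 0.478, above the threshold of 0.1 for every pair. Libraries of different numbers were not compared with this threshold, and libraries sharing a number also shared a lane. This check alone therefore cannot show that the numbers are pairs. No source says that a number is an animal, so the p-values speak only of variation among these libraries, and that may be technical. All 66 pairs of libraries differed by more than counting noise, with a reduced chi-square of 1.26 or higher, and each was kept as 1 sample.

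The members and lists were chosen with earlier results of these data known. Named genes are the 9 members, the 2 further genes per glycogen list that had the lowest unblocked p, and the 5 most similar to PPP1R3C. Neighbours and overlapping genes were taken by position, and PPP1R3G, PPP1R3A, PPP1R3F, ACTA2 and ADIPOQ were added after their values were seen. So were the other smooth muscle and adipocyte markers, CD44 and VWF. A gene that this rule names is not reported here.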

Additional observations from a re-analysis of the deposited data

Results flagged for a closer look

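GBE1 in the normoxia library numbered 21 had 29.0 CPM, far from the other 5 normoxia libraries, of which the nearest had 16.5 CPM. It rested on 6 reads in the library with the fewest gene reads. It was the 1 group of 18 examined with such a gap, and chance alone gives about 1 in 20.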

How the results depend on the processing

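The unblocked edgeR fit called 0 genes between hypoxia and normoxia under every scaling, filter and left-out library tried. Pairing by title number (the replicate block) gave 4 calls, and 0 to 12 with 1 number left out, namely 12 without 21, 3 without 16, 1 without 49 and 0 without 110, 33 or 4. Blocked fits chosen after seeing the data gave 0 calls in lane 7 and 3 in lane 8. Others gave 4 with library size as the only scaling, 11 without normoxia 21, and 0 with all reads as library size. Library size as the only scaling moved the median of all genes to 0.008, from -0.043. PPP1R3C stayed positive in every setting. That is no separate support, since it was selected for this difference and was higher in hypoxia in all 6 numbers. The log2 ratio of PPP1R3C was 0.99 (without hypoxia 4) to 1.69 (without normoxia 49) with 1 library left out, and 1.30 with the block. It was 0.98 to 1.49 with the block and 1 number left out (1.41 without 21), 1.35 with block and library size alone, and 1.40 with block and without normoxia 21. PPP1R3C, selected on the blocked fit, was among the genes called in 5 of the 32 settings. With the block it was not called without number 110, 16, 33 or 4. Nor was it called with block and all reads as library size, or with block in either lane alone. The replicate block changed no call of the 5 other genes tested.

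PPP1R3B, GYS1, UGP2, PYGL and PGM1 did not pass under any of the 32 settings that gave each a value. PPP1R3D, GBE1 and PYGB, untested in the fits with the filter on all libraries, had values in 14, 4 and 12 settings and passed in none of these. The sign of small values turned, and the cause was not tested. PPP1R3B was -0.17 in lane 7 (-0.02 with the block) and -0.10 to 0.44 with 1 library left out, being -0.01 without hypoxia 16 and -0.09 without normoxia 33. PPP1R3D was 0.10 in lane 8 and -0.17 to 0.16 with 1 library left out (0.02 without hypoxia 16). GYS1 was 0.03 with block and library size alone, 0.004 in lane 8 with the block, -0.18 to 0.10 with 1 library left out (0.01 without normoxia 33), and in the block 0.06, 0.05 and 0.09 without numbers 110, 33 and 49. GBE1 was 0.84 in lane 8, with the block and without. PYGB was 0.21 in lane 7 (0.30 with the block). UGP2 was -0.04 to 0.19 with 1 library left out (-0.01 without normoxia 4), and -0.03 in the block without number 110. PGM1 was -0.09 to 0.20 with 1 library left out (-0.002 without normoxia 49), -0.09 in the block without number 49, and -0.0007 in lane 7 with the block. Of the 5 genes most like PPP1R3C, 0 (without number 16) to 3 (without 33) stayed among the 5. In the test between title numbers PPP1R3C lost its call without number 49 (edgeR adjusted p = 0.101) and in lane 7 (0.207). With 10 to 142 reads per library at PPP1R3C and 1 to 20 at PPP1R3D, GBE1 and PYGB, depth limits the genes with few reads most.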
